A study of Mus musculus with 2 samples.

Results

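The Pax, Dlx, Lhx, Irx, Tbx, Sox and Nkx genes and the sine oculis homeobox genes, such as Six4, encode DNA-binding proteins that pattern the embryo. They were taken here as every protein-coding gene of GENCODE M21 whose symbol is one of these family names with a number, which gave 81 of 21938 protein-coding genes. There were 19 Sox, 14 Nkx, 13 Tbx, 9 Pax and 8 Lhx genes, and 6 each of Dlx, sine oculis and Irx genes. Symbols alone decided which genes belong, though the set itself was chosen with earlier results of these data known.

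Pax proteins bind DNA through a paired domain, Dlx, Lhx, sine oculis, Irx and Nkx proteins through a homeodomain, Tbx proteins through a T-box and Sox proteins through an HMG box. Most are switched on in particular embryonic tissues and are silent elsewhere. Their promoters often lie in long CpG islands, which in many other cell types carry the repressive mark of Polycomb complexes. Trimethylation of histone H3 at lysine 4, H3K4me3, is laid down around the starts of active genes and of genes poised for activity, most strongly at CpG islands.

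Chromatin immunoprecipitation with sequencing was used to map H3K4me3 in unstimulated macrophages grown from bone marrow of C57BL/6J mice, as primary cells with no genetic change named in the labels. This was the 1 group of the study, with 2 biological replicates, each begun from 10 ng of DNA. The replicates were separate cell samples under the same donor entry, whose age and sex the labels do not give, so their spread may be technical. The measurements are the authors' peak lists, one for each replicate, a list called on both together (pooled) and a list of replicated peaks.

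Promoter sequences of the genes on which the results turn are shown first, from RefSeq on GRCm38.p6, 5′ to 3′ on the gene's strand. Each holds bases 250 to 51 before the RefSeq start, with CpG dinucleotides in capitals. Sox4 (chr13:28953750-28953949, minus strand) and Six5 (chr7:19094294-19094493, plus strand) are shown because all 200 bases lay under a peak in both replicates. They hold 8 and 12 CpG, beside a median of 7 in the same stretch of 20150 promoters.
Sox4: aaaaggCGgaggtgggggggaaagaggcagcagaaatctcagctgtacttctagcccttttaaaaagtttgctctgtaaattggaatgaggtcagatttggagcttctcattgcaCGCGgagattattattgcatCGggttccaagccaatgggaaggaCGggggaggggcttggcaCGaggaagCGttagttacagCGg
Six5: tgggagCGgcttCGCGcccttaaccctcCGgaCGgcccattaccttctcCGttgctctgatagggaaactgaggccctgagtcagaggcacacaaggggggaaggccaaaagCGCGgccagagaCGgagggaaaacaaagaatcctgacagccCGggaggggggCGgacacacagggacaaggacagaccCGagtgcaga

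Sox12 (chr2:152398097-152398296, minus strand) has 28 CpG and a weak peak that covered 84 of these bases in replicate 1 and 0 in replicate 2. Six4 (chr12:73113476-73113675, minus strand) has 8 CpG, and 73 bases lay under a peak in replicate 1 and 0 in replicate 2. Sox11 (chr12:27342769-27342968, minus strand) is shown as the gene without a peak that had the highest CpG ratio, and it has 16 CpG here. The Sox5 stretch (chr6:143947157-143947356, minus strand) precedes a coding start with no peak, far from the marked end of that gene, and has 3 CpG.
Sox12: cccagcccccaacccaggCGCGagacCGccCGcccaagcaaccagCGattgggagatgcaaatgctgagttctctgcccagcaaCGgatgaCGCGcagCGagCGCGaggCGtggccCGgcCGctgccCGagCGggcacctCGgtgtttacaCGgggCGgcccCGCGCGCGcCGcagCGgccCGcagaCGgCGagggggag
Six4: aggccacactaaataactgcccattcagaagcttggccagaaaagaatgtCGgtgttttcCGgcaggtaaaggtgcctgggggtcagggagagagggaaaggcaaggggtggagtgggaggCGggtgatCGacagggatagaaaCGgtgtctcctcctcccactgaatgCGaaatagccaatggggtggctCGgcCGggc
Sox11: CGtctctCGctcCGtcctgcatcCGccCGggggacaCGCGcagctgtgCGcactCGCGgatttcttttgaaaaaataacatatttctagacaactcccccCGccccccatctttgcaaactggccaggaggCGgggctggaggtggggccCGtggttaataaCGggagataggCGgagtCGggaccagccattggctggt
Sox5: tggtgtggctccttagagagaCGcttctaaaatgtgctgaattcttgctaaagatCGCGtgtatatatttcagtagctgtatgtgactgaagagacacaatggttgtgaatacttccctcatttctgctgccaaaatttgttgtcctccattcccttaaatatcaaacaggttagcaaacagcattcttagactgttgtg

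Short motifs, 4 in all, were searched on both strands, none of which is contained in another. GGGCGG, the GC box, occurred 3 times in Sox12, 2 times in Sox11 and 1 time in Six5, and 33.0% of all 20150 stretches hold it. CCAAT occurred 2 times in Sox4 and 1 time each in Six4, Sox12 and Sox11, beside 29.6% of all stretches. GAGGAAG, a purine-rich word of the kind that the macrophage factor PU.1 binds, occurred 1 time in Sox4, and 7.89% of all stretches hold it. TATAAA was in 0 of these 6 stretches and in 7.71% of all. The stretches end 51 bases before the start, so a TATAAA nearer to it could not be found, here or in the other promoters. The unmarked Sox11 stretch, chosen for its CpG ratio, holds GGGCGG and CCAAT as well. With 1 such stretch, marked and unmarked genes were not compared for motifs.

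A gene was called marked where both replicate lists had a peak that overlapped a window reaching 1000 bp to each side of any of its transcript starts. Of the 81 genes, 6 were marked, among them Six4, Six5, Sox4, Sox5 and Sox12. That was 7.41% of the family genes, and the share over all protein-coding genes was 49.5%. A further 8 (9.88%, beside 4.00% of all protein-coding genes) had a window peak in the list of replicate 1 only: Dlx1, Dlx2, Dlx4, Irx5, Lhx1, Sox6, Tbx1 and Tbx20. In the list of replicate 2 only there were 0 family genes and 1 of all protein-coding genes. The other 67 had no window peak in either list. Counted on 1 list alone, 14 genes (17.3%) had a window peak in replicate 1, beside 53.55% of all protein-coding genes. In replicate 2 it was 6 genes (7.41%), beside 49.55%. The pooled and the replicated list had 10 each (12.35%), beside 52.71% and 51.29% of all protein-coding genes. These are shares within 2 libraries, and the difference from other genes was not tested. In a population of cells, a mark on few cells and a weak mark on all cells cannot be told apart.

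**Figure D1:**
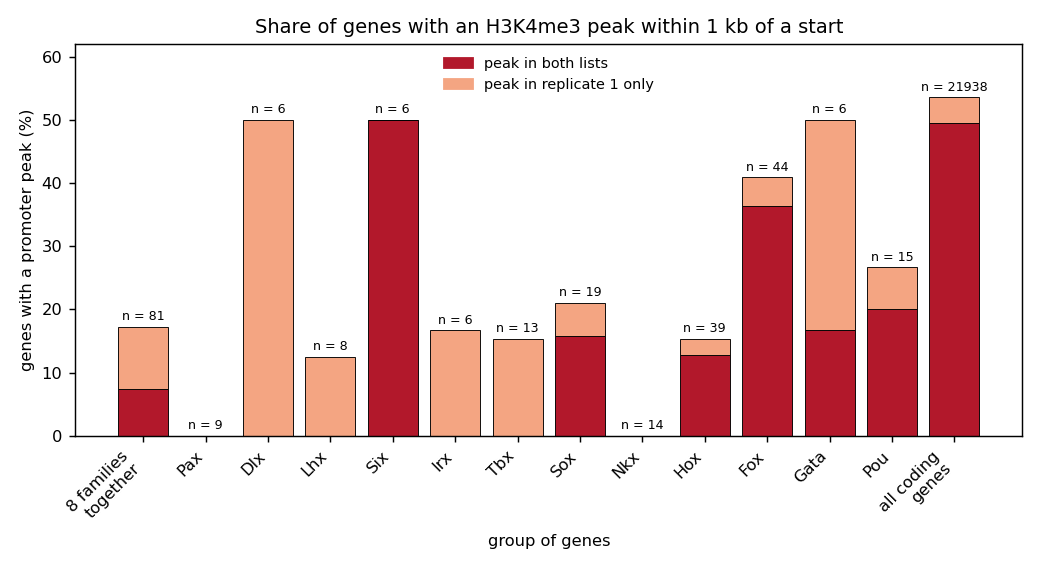
Bars give the percentage of genes in each group with an H3K4me3 peak within 1 kb of a start, split into peaks in both replicate lists and in that of replicate 1 only, with the number of genes above. Of the 8 families, the sine oculis and Sox families alone hold genes marked in both lists, and the 8 families together stand at 17.3% with either kind of peak, beside 53.6% of all coding genes in the list of replicate 1.

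The peak lists held 20031 peaks over 25.5 Mb in replicate 1 and 16376 peaks over 17.8 Mb in replicate 2, with median folds of 21.7 and 10.7. Folds are the values the authors gave each peak, and they were ranked only within a list. Read depth is unknown, so no counting error can be given. The cell label was compared with markers, on lists chosen with earlier results of these data known, so this is no independent check. Of the macrophage genes 12 of 12 were marked, Csf1r and Spi1 among them, beside 49.5% of all protein-coding genes. Of markers of other cells, 0 of 8 stromal, 0 of 5 B cell, 2 of 6 endothelial (Kdr and Pecam1) and 2 of 6 T and NK cell genes (Cd3d and Gata3) were marked. Their part in the results below was not tested. Pax5, Tbx21, Sox7, Sox17 and Sox18, family genes typical of B, T and endothelial cells, had no window peak.

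By family, 3 of 6 sine oculis genes and 3 of 19 Sox genes were marked, and 0 of 9 Pax, 0 of 6 Dlx, 0 of 8 Lhx, 0 of 6 Irx, 0 of 13 Tbx and 0 of 14 Nkx genes. Over all protein-coding genes the share was 49.5%, close to the 50% of the sine oculis genes. The genes with a peak in replicate 1 only were 3 Dlx, 2 Tbx and 1 each of Irx, Lhx and Sox. Pax and Nkx were without a window peak in either list. The families are small, and the differences between them were not tested. Counted by transcript start, 28 of 254 distinct starts of the family genes (11.02%) had a window peak in replicate 1 and 9 (3.54%) in replicate 2. Over all 93513 starts of protein-coding genes these shares were 46.5% and 43.0%.

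The CpG content of the family genes was set beside their low marked share, and a link between them was not tested. The CpG observed/expected ratio, over 1000 bp to each side of the gene's 5′ end, had a median of 0.609 in the family genes and 0.474 in all protein-coding genes. Of the family genes, 42 (51.9%) fell in the highest tertile of all genes, above a ratio of 0.604, where 33.3% of all genes fall. In that tertile 5 of 42 family genes were marked in both lists (11.9%), beside 80.5% of all genes there. A peak in replicate 1 only was found at 3 of the 42 (7.14%), beside 4.20% of all genes of that tertile. Counted on the list of replicate 1 alone, the family share was 19.05%, a measure unlike the 80.5%, which needs both lists. In the middle tertile, 1 of 32 family genes was marked (3.12%), beside 56.1% of all, and in the lowest tertile, up to 0.278, 0 of 7, beside 12.1%.

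Within the families, the CpG ratio of marked and unmarked genes overlapped. The 6 marked genes had a median of 0.721, with 0.635 at Sox5, 0.664 at Six4, 0.778 at Six5, 0.818 at Sox4 and 0.937 at Sox12. The 8 with a peak in replicate 1 only ranged from 0.480 (Tbx1) to 0.780 (Dlx2), with a median of 0.574. At Dlx1, Lhx1 and Tbx20 the 5′ end had no window peak, so their ratios are not those of the starts with a peak. Such starts had 0.540 to 0.744 at Dlx1, 0.520 to 0.632 at Lhx1 and 0.529 to 0.545 at Tbx20. The 67 without a peak ranged from 0.107 (Pax4) to 0.967 (Sox11), with a median of 0.607. Among all protein-coding genes the medians were 0.624 for marked genes, 0.518 with a peak in replicate 1 only and 0.216 with none. The gap between marked and unmarked genes was thus narrower in the family genes, and this was not tested.

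**Figure D2:**
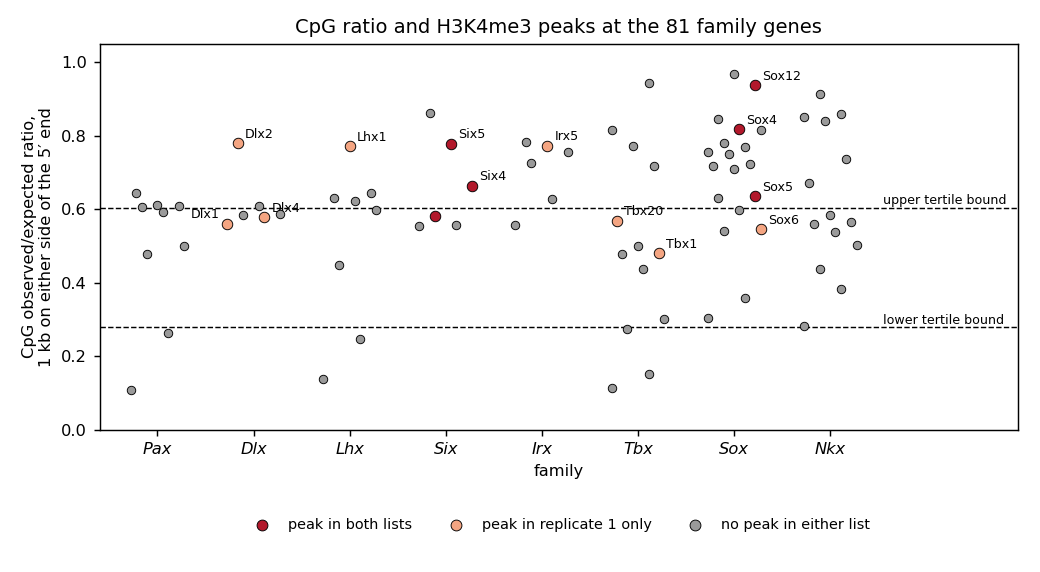
Each point is 1 of the 81 genes, placed by family (offset sideways for legibility) and by its CpG observed/expected ratio, and dashed lines bound the tertiles of all protein-coding genes at 0.278 and 0.604. The unmarked Sox11 (0.967) and Tbx18 (0.943) lie above the marked Sox12 (0.937), and all 14 Nkx genes, from 0.281 to 0.915, are without a peak.

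Proteins of the sine oculis family work with Eya cofactors in muscle, kidney and sense organs. Six4, on chromosome 12, had folds of 10.28 in replicate 1 and 4.31 in replicate 2. A domain is the run of peaks joined within 1000 bp that touches a window. At Six4 it was 1367 bp wide in replicate 1 and 370 bp in replicate 2 (868.5 ± 705.0 bp). The peak found in both lists sat inside the gene, 881 to 1274 bp past the 5′ end in replicate 1 and 925 to 1294 bp past it in replicate 2. A weaker peak over the start itself, of fold 5.60, was in replicate 1 only. With a window of 500 bp, or an overlap of at least 200 bp, Six4 had a peak in replicate 1 only. Six6, which acts in eye and pituitary, had no window peak. The pair on chromosome 17, Six2 and Six3, 74666 bp apart, had none either.

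Six5 on chromosome 7 adjoins Dmpk, the gene whose repeat expansion causes myotonic dystrophy in humans. It had folds of 15.69 in replicate 1 and 5.35 in replicate 2 and a domain of 1091 and 450 bp (770.5 ± 453.3 bp). The main peak ran from 471 bp upstream to 63 bp past the start in replicate 1 and from 425 bp upstream to 24 bp past it in replicate 2. A second peak of replicate 1, of fold 4.30, lay 1027 to 540 bp upstream. Dmpk, whose 5′ end is 10745 bp away, was itself marked with folds of 8.22 and 3.20.

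Sox4, Sox11 and Sox12 form the SoxC group, which acts in neurons, heart and, for Sox4, lymphocyte development. Sox4 had the highest window-peak fold of the 81 genes in both lists, 17.38 in replicate 1 and 5.61 in replicate 2. Its peak spanned the start, from 569 bp upstream to 578 bp past it in replicate 1 and from 268 bp upstream to 534 bp past it in replicate 2. The domain was 1148 and 803 bp wide (975.5 ± 244.0 bp). Further pairs of peaks lay close by, 1 outside the gene, centred 4905 bp upstream in replicate 1 with a fold of 16.07 and 4819 bp upstream in replicate 2 with 5.35, and 1 inside it, 3883 and 3469 bp past the start, at folds of 7.10 and 3.13.

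Sox12 was the weakest of the 6, with folds of 6.91 in replicate 1 and 3.39 in replicate 2. Its domain of 601 and 341 bp (471.0 ± 183.8 bp) lay wholly upstream of the start, from 750 to 150 bp before it in replicate 1 and from 666 to 326 bp before it in replicate 2. Its CpG ratio of 0.937 was above that of 98.9% of protein-coding genes, yet its width was at percentile 0.28 of marked genes. Sox11, the remaining SoxC gene, had no peak within 871018 bp of a start in replicate 1.

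Sox5, Sox6 and Sox13 form the SoxD group, known from cartilage, where Sox5 and Sox6 act with Sox9. Sox5 had folds of 11.77 in replicate 1 and 4.57 in replicate 2 and a domain of 1660 and 385 bp, the largest spread of the 6 (1022.5 ± 901.6 bp). Sox6 had a window peak in replicate 1 only, and Sox13 had none.

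Folds and widths of the marked family genes were near the bottom of those of marked genes. In replicate 1 the 6 genes ranged from 6.91 to 17.38 with a median of 12.8, beside a median of 38.9 over all 10869 marked genes. In replicate 2 they ranged from 3.39 to 5.61 with a median of 4.63, beside 14.9. All 6 were below the 10th percentile of marked genes in both lists, which was 17.75 in replicate 1 and 6.41 in replicate 2. Within replicate 1 they ranked between percentile 0.42 (Sox12) and 9.61 (Sox4), and within replicate 2 between 1.33 and 7.68, with the same 2 genes at the ends.

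The mean domain width had a median of 922 bp in the 6 family genes and 1946.5 bp in all marked genes. By list it was 1257.5 bp beside 2149 bp in replicate 1 and 417.5 bp beside 1741 bp in replicate 2. Sox12, at 471.0 bp, was the narrowest, and Six4, Six5, Sox4, Sox5 and Sox12 were all below the 10th percentile of marked genes, 1037.9 bp. In every one of the 6 the domain of replicate 2 was narrower than that of replicate 1. The 2 domains of each gene overlapped, by 341 bp at Sox12 and 803 bp at Sox4, for example.

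**Figure D3:**
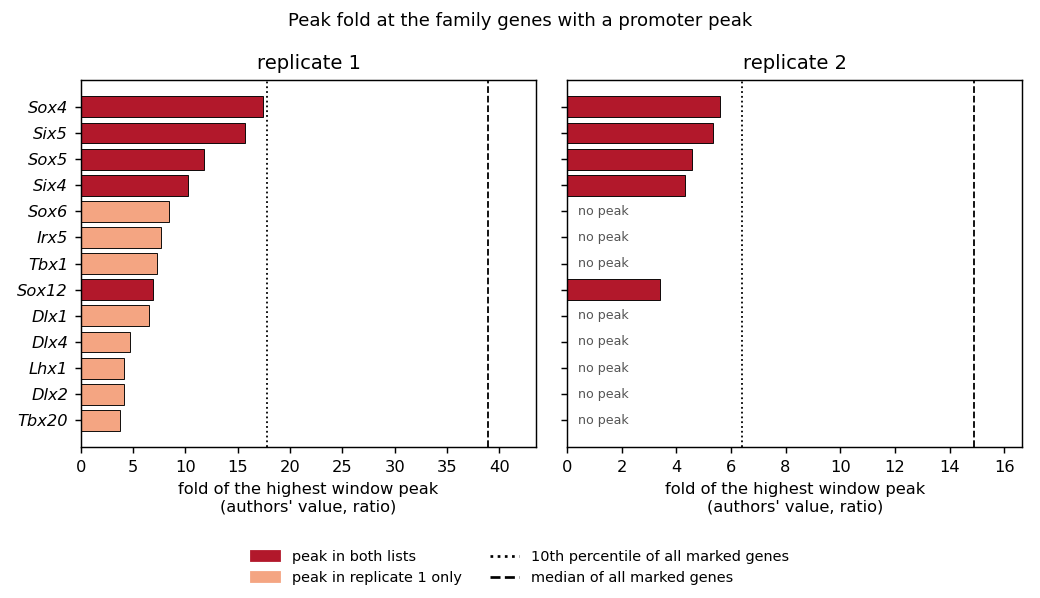
Bars give the authors' fold of the highest window peak of 13 family genes with a peak, in replicate 1 (left panel) and replicate 2 (right panel), on separate linear scales that start at 0. The dotted line is the 10th percentile (17.75 and 6.41) and the dashed line the median (38.9 and 14.9) of all marked protein-coding genes, and every bar ends short of the dotted line.

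The 8 genes with a window peak in replicate 1 only had folds of 3.74 to 8.41 with a median of 5.60, and widths of 277 to 1802 bp with a median of 443.5 bp. All 878 such protein-coding genes had medians of 5.79 and 617.5 bp. Sox6 had the highest fold of the 8, 8.41, followed by Irx5 with 7.66, Tbx1 with 7.29 and Dlx1 with 6.54. Dlx4 had 4.67, Dlx2 and Lhx1 had 4.11 each, and Tbx20 had 3.74. The first 4 also had peaks in the pooled and the replicated list, with folds of 5.01 at Sox6, 5.51 at Irx5, 4.68 at Tbx1 and 4.34 at Dlx1. The last 4 had a peak in neither.

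Over all protein-coding genes, a window peak of replicate 1 more often had a partner in replicate 2 at higher folds. At folds up to 8.41 in replicate 1, 1 of 9 family genes, Sox12, also had a window peak in replicate 2 (11.1%), beside 127 of 850 protein-coding genes (14.9%). Between 8.41 and 17.38 it was 5 of 5, beside 918 of 1056 (86.9%). Above 17.38, where 9841 protein-coding genes lie and 99.8% had a partner, there were 0 family genes. These bounds were set on the family genes' own values, so their 5 of 5 and 0 were fixed in advance and the counts are a description.

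Dlx1 and Dlx2 are a convergent pair on chromosome 2, 18641 bp apart, that act in forebrain interneurons and the jaw. Both had a peak in replicate 1 only, and the nearest peak of replicate 2 was 50468 bp from a start of Dlx1 and 34494 bp from one of Dlx2. Dlx4 on chromosome 11 had a peak of 323 bp, while its partner Dlx3, 26144 bp away and known from skin and hair, had none. The remaining pair, Dlx5 and Dlx6, which act in bone and limb, had none.

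Irx5, which acts in heart and retina, had its window peak at the edge of the window, from 1675 to 897 bp upstream. In replicate 2 the nearest peak, of fold 3.92 and 290 bp, lay 1324 bp from a start, just outside. Both belong to a run of peaks near the start of the noncoding gene Crnde, where a further peak had folds of 17.19 in replicate 1 and 6.00 in replicate 2. The joined domain touching the Irx5 window was therefore 1802 bp wide in replicate 1, the widest of the 8.

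Tbx1, which patterns the pharyngeal arches, had a peak of 807 bp that lay 58 to 864 bp past its 5′ end. Tbx20, needed in heart, had one of 369 bp inside the gene, and Lhx1, which acts in head and kidney formation, one of 392 bp inside the gene. The nearest peak of replicate 2 was 83725 bp from a start of Tbx1, 265492 bp from one of Tbx20 and 7931 bp from one of Lhx1.

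**Figure D4:**
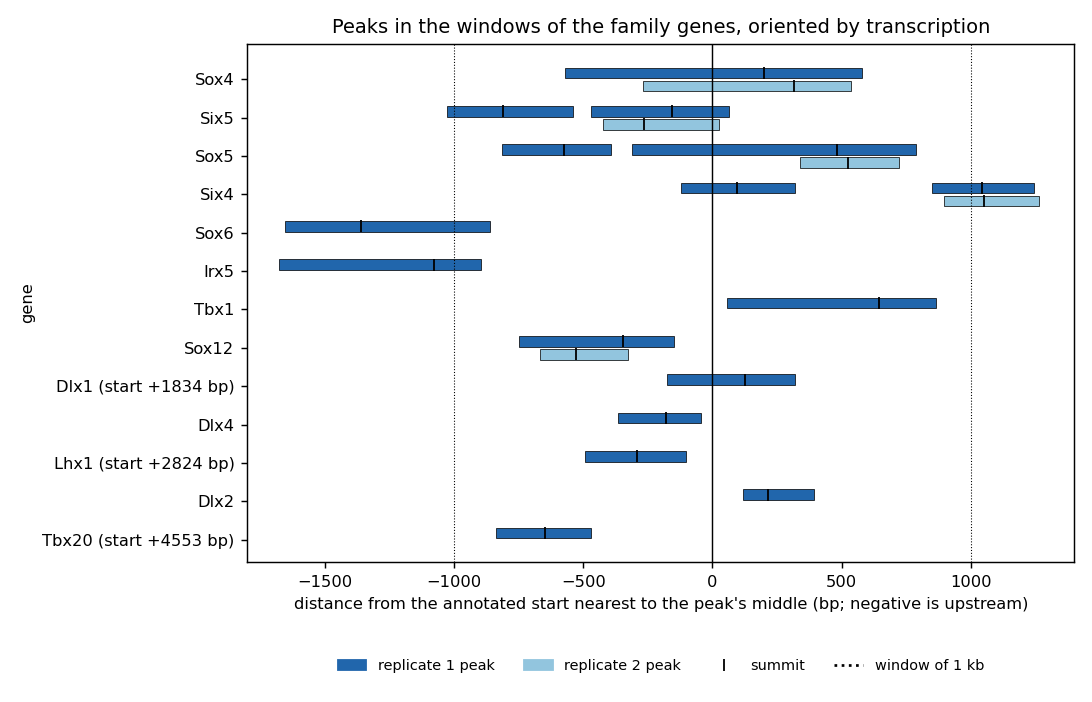
Horizontal bars give the extent of each window peak in bp from the annotated start nearest to its middle, upstream to the left, with a tick at the summit, dark for replicate 1 and light for replicate 2. Labels with a distance name a start that many bp past the gene's 5′ end. At Sox4 the peaks of both replicates span the start, at Sox12 both end upstream of it, and at Six4 the shared peak lies past it.

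Starts with a peak were not always those of the coding transcripts. At Sox5 the marked starts, 58 bp apart, belong to a retained intron and a processed transcript. Its other 10 starts, 572409 to 834889 bp downstream, had CpG ratios of 0.332 to 0.375 and no window peak. Marked genes without a marked start of a coding transcript were 2 of 6 in the families (33.3%) and 155 of 10869 over all protein-coding genes (1.43%). In the remaining marked genes, Six4, Six5, Sox4 and Sox12, every annotated start was marked in both lists. Six5 and Sox4 have 1 start each, and the 2 starts of Six4 lie 31 bp apart and those of Sox12 17 bp apart. Their windows could thus hardly differ.

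Among the genes with a peak in replicate 1 only, Dlx1 had a peak at 4 of 6 starts, not at the 2 most upstream. Lhx1 had it at 3 internal starts, 2824 to 3468 bp past the 5′ end, and Tbx20 at 2, 4553 and 4623 bp past it, and neither gene at its 5′ end. Tbx1 had it at the first 2 of 4 starts and Sox6 at the first 2 of 13. Dlx2 and Dlx4 had it at both of their starts and Irx5 at 1 of 2.

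In 0 of the 6 marked genes did a window hold the start of another gene. Among the 8 others, the windows of Dlx1, Dlx4 and Lhx1 each held the start of 1 noncoding gene on the opposite strand, Dlx1as at 186 bp, Dlx4os at 749 bp and Lhx1os at 125 bp. Sox6 shared its window with the antisense genes Gm45025 (188 bp) and Sox6os (932 bp) and with the coding gene 1110004F10Rik, which starts 601 bp away on the opposite strand. The Sox6 peak, 861 to 1654 bp upstream of its 5′ end, covered a second start of 1110004F10Rik, 916 bp from a start of Sox6. The strongest peaks of 1110004F10Rik, with folds of 48.39 and 21.41, lay over another of its starts, 53609 and 53796 bp from the 5′ end of Sox6.

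Marking of a family gene stood beside marked and unmarked coding neighbours alike. Nearest to Six4 was Mnat1, an assembly factor of the kinase that activates cyclin-dependent kinases, 10261 bp away with folds of 56.42 and 25.06. Beyond Six5 lay the unmarked Gm4969. Sox12 lay between the unmarked Nrsn2 and Zcchc3, which had a peak of fold 6.54 in replicate 1 only. The marked neighbour of Sox4, Cdkal1, was 901961 bp away with folds of 51.19 and 21.54, and the other, Gm11361, was unmarked. Sox5 lay between Etnk1, with folds of 37.74 and 15.92, and Bcat1, marked with a fold of 6.91 in replicate 1.

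Both neighbours of Lhx1, Aatf at 12013 bp and Mrm1 at 293980 bp, were marked. One neighbour was marked at Dlx1 (Metap1d), Dlx2 (Itga6), Tbx1 (Rtl10, while Gp1bb was unmarked) and Sox6 (1110004F10Rik, while Insc was unmarked). The neighbours of Dlx4 (Dlx3 and Tac4), of Irx5 (Irx3 and Irx6) and of Tbx20 (Dpy19l2 and Gm10181) were all without a window peak in either list.

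The 9 Pax genes had no window peak, and the highest CpG ratios among them were those of Pax2 (0.645), which acts in kidney, and Pax9 (0.612), which acts in teeth and thymus. Pax5, the factor of B cell commitment, had its nearest peak of replicate 1 at 45009 bp. Among 14 Nkx genes, Nkx2-4 had a ratio of 0.915 and Nkx1-1 of 0.860. The heart factor Nkx2-5 had 0.566 and the lung and thyroid factor Nkx2-1 had 0.585. The Pax ratios ran from 0.107 (Pax4) to 0.645 and the Nkx ratios from 0.281 (Nkx6-3) to 0.915.

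Of the 11 Tbx genes with no peak, Tbx18, which acts in the heart's outer layer and ureter, had a ratio of 0.943 and Tbx3 had 0.816. Tbx21, the master factor of type 1 helper T cells, had 0.718, with a peak of replicate 1 at 11418 bp. Of the 15 such Sox genes, Sox11 had 0.967 and Sox3, a gene of neural progenitors, had 0.845. Six2, a factor of kidney progenitors, had 0.861, Irx2 had 0.784 and Irx1 had 0.756. Lower ratios were found for Lhx8 (0.643), Lhx5 (0.631), Dlx6 (0.609), Dlx5 (0.588) and Six3 (0.558), all without a peak.

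Several unmarked genes are landmark regulators of other lineages. Pax6, a factor of eye and forebrain, has 24 annotated starts and a CpG ratio of 0.610, and 0 of its starts had a window peak in either list. Sox2, a factor of pluripotent and neural stem cells, had a ratio of 0.817, and its nearest peak was 14089 bp from the start in replicate 1 and 568565 bp from it in replicate 2. Sox9, needed in cartilage and testis, had its nearest peak of replicate 1 at 390210 bp, and Sox10, a neural crest factor, at 22284 bp. Tbx5, a factor of heart and forelimb, had its nearest peak of replicate 1 at 279869 bp. Without a peak were also Pax1, Pax7 and Pax8, Lhx2, Lhx3, Lhx4 and Lhx6, Irx3, Irx4 and Irx6, and Tbx2, Tbx4, Tbx10, Tbx15, Tbx19 and Tbx22. The same held for Sox1, Sox8, Sox14, Sox15, Sox21 and Sox30, and for Nkx1-2, Nkx2-2, Nkx2-3, Nkx2-6, Nkx2-9, Nkx6-1, Nkx6-2 and Nkx6-3.

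The 67 genes with no window peak were not far from peaks as a group. The nearest peak of replicate 1 lay a median of 70632 bp from a start, with a range of 1159 to 871018 bp, and that of replicate 2 a median of 82356 bp. For all 10190 protein-coding genes with no window peak the medians were 83106 and 98668.5 bp. Within 5000 bp of a start there was a peak of replicate 1 at 6 of the 67 (8.96%), beside 5.45% of all such genes, and within 100000 bp at 39 (58.2%), beside 54.0%. In the highest CpG tertile the order was the other way: the median was 100297.5 bp for 34 family genes and 66416.5 bp for all 1122 genes. None of these differences was tested.

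**Figure D5:**
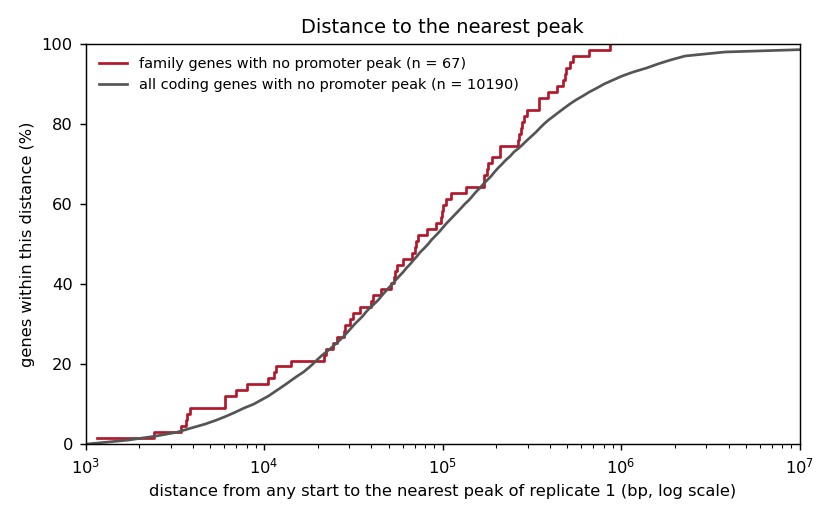
Curves give the percentage of genes with a peak of replicate 1 within the distance on the x axis (bp, log scale), for the 67 family genes and all 10190 protein-coding genes with no window peak. The curves run close together up to 100000 bp, where they stand at 58.2% and 54.0%, and that of the family genes ends at 871018 bp.

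The 6 genes with a peak within 5000 bp were Lhx9, Pax3, Nkx3-2, Irx2, Tbx6 and Sox18. At Nkx3-2, a factor of skeleton and spleen formation, both lists held a peak, 3419 bp upstream in replicate 1 with a fold of 20.74 and a width of 727 bp, and 3414 bp upstream in replicate 2 with 7.44 and 699 bp. These folds were above those of all 6 marked family genes, and no annotated start lay within 1 kb of the peak. Lhx9, a gonad factor, had peaks inside the gene, of folds 9.53 and 7.85 in replicate 1 and 3.33 in replicate 2, the closest 1159 bp from a start. The peak near Tbx6 (27.65 and 9.79), a mesoderm factor, lay near starts of Ypel3 and Gm9967. Those near Pax3 (5.23, 2422 bp from a start), Irx2 (5.42, 3655 bp) and Sox18 (5.42, 3871 bp) were in replicate 1 only. Among genes with no window peak in either list, the Dlx gene nearest to a peak of replicate 1 was Dlx3, at 25725 bp, and the sine oculis gene was Six6, at 104870 bp.

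Other developmental families were counted the same way. Marked in both lists were 5 of 39 Hox genes (12.8%), 16 of 44 Fox (forkhead) genes (36.4%), 1 of 6 Gata genes (Gata3), 3 of 15 Pou genes (Pou2f1, Pou2f2 and Pou6f1) and 1 of 18 genes of the Otx, Emx, Msx, Gbx, Barx, Hand and Zic names (Msx3). In the highest CpG tertile these were 2 of 17 Hox, 14 of 33 Fox, 0 of 3 Gata, 3 of 9 Pou and 1 of 14 genes of the last group, beside 5 of 42 genes of the 8 families. The share of the 8 families together lay below those of Fox, Pou, Gata and Hox and above that of the last group over all genes. In the highest CpG tertile this order did not hold, with 11.9% in the 8 families, 11.76% in Hox and 0% in Gata. These differences were not tested. The median domain width was 922 bp in the marked genes of the 8 families, 1839.5 bp in Hox, 2142 bp in Fox and 2780.5 bp in Pou. It was 1480.5 bp at Gata3 and 1287.5 bp at Msx3.

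Genes of known partners of these proteins were counted too, on lists that are small, and no difference from the families or from the 49.5% of all protein-coding genes was tested. Of the partners of sine oculis proteins, Eya1, Eya3 and Dach1 were marked, 3 of 6, with folds of 28.96 and 9.40 at Eya1, a tyrosine phosphatase and coactivator. Dach2 had a peak of replicate 1 only, and Eya2 and Eya4 had none. Of LIM partners, 3 of 8 were marked: Ldb1, the adaptor that joins LIM proteins, and Lmo2 and Lmo4. Isl2 had a peak in replicate 1 only. Of the homeodomain partners, 7 of 9 Pbx, Meis and Pknox genes were marked, the exceptions being Meis2, with a peak in replicate 1 only, and Pknox2. Among corepressors of the Groucho type, 4 of 5 were marked (Tle1, Tle3, Tle4 and Aes), and of 4 Pou genes that pair with Sox proteins, Pou2f1 alone. Tle2 and Pou3f1 had a peak in replicate 1 only. Several of these partners also serve other factors.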

How the data were processed

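H3K4me3 peak lists of 2 biological replicates of unstimulated macrophages (1 group) were analysed, with a pooled and a replicated list of the whole series. Texts deposited beside the lists say that the authors called pseudoreplicated peaks on each replicate's alignments and on both together, and derived a replicated list; the assembly was mm10, per the labels. Each deposited peak carries the authors' fold, a ratio whose reference is not stated, and the authors' −log10 p. For the aligner, the caller and the cut-offs, names and settings were not given in the sources used here. Read counts were not used, depth is unknown, and no interval from counting is given.

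The 81 genes, the marker and partner lists and the comparisons were chosen with earlier results of these data known. Genes and starts came from GENCODE M21 on GRCm38.p6, which is mm10, on 21 chromosomes, and 0 of 72262 peak ends lay beyond a chromosome. A gene was marked when both replicate lists had a peak overlapping by at least 1 bp the 1000 bp to each side of any start. Domains joined peaks within 1000 bp, and the widest one touching a window was averaged over the replicates. The CpG ratio was computed over 1000 bp to each side of the gene's 5′ end. Promoter sequences came from the RefSeq table, for 6 genes. Fox genes were those with 1 letter and a number after the name, which leaves out Foxred1 and Foxred2, a restriction made after the counts were seen. Some of the 81 genes are counted but not reported by name here. The scripts used Python 3.11.15, numpy 2.4.6 and matplotlib 3.10.9, and the marking routine was tested on simulated data.

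No test was run: there is 1 group, and genes within a library are not replicates of a condition. Counts stand beside the same counts over all protein-coding genes. The rule for named genes took all genes with a peak in both lists or in one, in each family the 2 unmarked genes of highest CpG ratio and the one nearest to a peak of replicate 1, genes with a start in a marked gene's window, and the nearest coding gene on either side. Genes named beyond this rule, for their biology or as members of the marker and partner lists, were chosen after their values were seen. Alternatives were windows of 500 and 2500 bp, 1 start per gene, the 15000 peaks with the highest −log10 p per list, an overlap of 200 bp, no joining or joining within 3000 bp, a CpG ratio over 500 bp on either side, each replicate alone, the pooled and replicated lists, and leaving out genes that share a window with another coding gene.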

Additional observations from a re-analysis of the deposited data

How the results depend on the processing

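Of 65 values under alternatives, 10 moved beyond the set bounds (for shares and widths, 1 SD between the 2 replicates). Counts, widths and single shares have no sign to change, and the difference in marked share stayed negative under all of its alternatives. Marked in both lists were 6 genes, 10 in the replicated list, 10 in the pooled list, and 6 to 14 with 1 replicate left out, where 14 is replicate 1 alone. Over all protein-coding genes the shares were, in the same order, 49.54%, 51.29%, 52.71% and 49.55% to 53.55%. The count in 1 list only was 8, and 5 with 1 start per gene (Dlx1, Lhx1 and Tbx20 drop out) and 1, Sox6, with the 15000 strongest peaks of each list, where Sox12 also loses its mark. The marked share of the family genes minus that of all protein-coding genes was -42.14 percentage points, from -42.14 to -36.26 with 1 replicate left out and -35.86 without genes that share a window. In the highest CpG tertile the share was 11.9%, and 11.9% to 19.05% with 1 replicate left out. Of the 14 genes with a peak, 6 kept their call with the 15000 strongest peaks; on 1 list alone, where only marked or not marked can be compared, it was 6 to 14, and with replicate 2 alone the 8 genes of replicate 1 only have no peak. The median width was 922 bp, with 417.5 bp in replicate 2 alone, 617.2 bp without joining and up to 1101 bp in the pooled list; the SD of 594 bp that it was held to is wide.

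With a window of 500 bp or an overlap of 200 bp, Six4 had a peak in replicate 1 only and Irx5 and Sox6 had none; with 2500 bp, Irx5 and Lhx9 were marked in both lists and Pax3 in replicate 1. Starts of coding transcripts alone, an alternative chosen after seeing the data, left 4 genes marked, without Sox5. The count in 1 list only has no value where a single list is used. No paired analysis was possible because there is only 1 group. With 2 libraries, differences between the lists of replicate 1 and replicate 2 cannot be told apart from depth or handling, which the peak lists do not give.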

Other observations

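Sox6 carried a peak deep inside the gene that belongs to no promoter window. It lay 17764 bp from the nearest annotated start in replicate 1, with a fold of 13.83 and a width of 917 bp, and 17919 bp from it in replicate 2, with a fold of 4.57 and 622 bp. In replicate 1 this fold was above those of the marked genes Six4, Sox5 and Sox12, and in replicate 2 above those of Six4 and Sox12. Sox13, another SoxD gene, had an intragenic peak of fold 6.91 and 379 bp in replicate 1 only, 6058 bp from a start.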
